A study of Homo sapiens with 22 samples.

Results

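The anterior and central HOXA genes are HOXA2, HOXA3, HOXA4, HOXA5, HOXA6 and HOXA7, 6 of 19974 protein-coding genes of the RefSeq annotation on chromosomes 1 to 22 and X. They were chosen by name. Each was described by the deposited peaks that lay over the gene or within 1 kb of it, and by HOXD13 peaks within 100 kb. The 6 genes lie side by side on chromosome 7 of GRCh38.p14 in a stretch of 56322 bp, at chr7:27100354-27156675. HOXA2 occupies chr7:27100354-27102683, HOXA4 chr7:27128525-27130757, HOXA5 chr7:27141052-27143681, HOXA6 chr7:27145396-27147774 and HOXA7 chr7:27153716-27156675. The gene model of HOXA3, chr7:27107010-27152583, is 45574 bp long and contains all of HOXA4, HOXA5 and HOXA6, so a peak over any of these also counted for HOXA3. The long noncoding RNA genes HOXA-AS2 and HOXA-AS3 overlap the same stretch, and a histone peak there cannot be assigned to one of the overlapping genes.

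HOX genes encode homeodomain transcription factors that give the embryo its head-to-tail pattern, and their order along the chromosome follows the order of the body regions where they act. HOXA2 and HOXA3 pattern the hindbrain and the pharyngeal arches, HOXA4 to HOXA7 act in the neck and trunk, and the posterior genes HOXA9 to HOXA13 act in the lower trunk, limbs and genital tract. Where a HOX cluster is silent it is usually held by Polycomb repressive complexes, which write H3K27me3 over broad domains, while trithorax group enzymes write H3K4me3 at the promoters of active or poised genes. H3K27ac marks active promoters and enhancers, and H3K4me1 marks enhancers and the flanks of promoters.

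The data were CUT&RUN libraries, in which an antibody directs a nuclease to cut chromatin around its target, from A673 and CHLA10, established cell lines of Ewing sarcoma. Of 22 libraries, 18 had a deposited peak list: 1 HOXD13 library per line, and 2 libraries per line for each of H3K4me3, H3K27ac, H3K4me1 and H3K27me3. The series title names HOXD13 and the EWS-FLI1 fusion protein as regulators of tumour cell plasticity. The histone libraries of both lines carry the label shNS, and the HOXD13 libraries do not. Both lines were untreated per the labels, which do not say what shNS means, and were grown in different media. The HOXD13 antibody was diluted 1:20, the antibodies against H3K4me1, H3K4me3 and H3K27me3 1:100, and that against H3K27ac 1:50. The labels do not say whether the 2 replicates of a mark were separate cultures. The 4 IgG libraries had no list and were not analysed here.

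The lists differed in size between lines. H3K4me1 lists held 106770 and 43083 peaks in A673 and 23432 and 20956 in CHLA10. H3K4me3 lists held 17909 to 21384 peaks, H3K27ac lists 24293 to 47393, H3K27me3 lists 28060 to 44644, and the HOXD13 lists 7160 in A673 and 2099 in CHLA10. No list gives read counts, so the depth behind a peak is unknown, and a missing peak means only that none is listed. Of 8 genes that mark Ewing sarcoma, among them NKX2-2, CD99 and NR0B1, 8 carried H3K4me3 in all 4 libraries, as did 66.7% of all genes. NKX2-2 also had H3K27me3 in CHLA10 only, and NR0B1 H3K27ac in CHLA10 only. Among markers of epithelial, endothelial and muscle cells, PECAM1 and MYOD1 carried H3K4me3 in both A673 libraries and neither CHLA10 library (1.68% of all genes). EPCAM carried H3K4me3 in both CHLA10 libraries and neither A673 library (2.4%). In each of these 3 lists another marker had no H3K4me3 in any library, like 24.3% of all genes. These were 1 of 3 epithelial, 1 of 2 endothelial and 1 of 2 muscle markers. MYOD1 also carried H3K27me3 in all 4 libraries, beside 10.3% of all genes. The smallest exact permutation p that 2 libraries against 2 allow is 0.33, so lines were not compared by a test and differences are set beside the spread of the replicates.

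The sequences before 6 annotated starts are shown because the marks described below differed among these starts. They are the 250 bases upstream of the start in the RefSeq promoter table of GRCh38.p14, all on the minus strand and written 5′ to 3′. Their positions, in the order shown, are chr7:27102684-27102933, chr7:27113843-27114092, chr7:27130758-27131007, chr7:27147775-27148024, chr7:27150951-27151200 and chr7:27156676-27156925. The table gave 11 starts for 5 of the 6 genes, 7 of them for HOXA3, and no entry for HOXA5. The HOXA3 inner start, chr7:27113842, is the lowest of these 7, and the start called outer, chr7:27150950, is the last but one. Capitals mark matches on either strand to CCAAT, the box bound by NF-Y, to TGATNNAT, the site of a PBX and HOX protein pair, and to TTTATTG, a core bound by posterior HOX proteins.
HOXA2 start: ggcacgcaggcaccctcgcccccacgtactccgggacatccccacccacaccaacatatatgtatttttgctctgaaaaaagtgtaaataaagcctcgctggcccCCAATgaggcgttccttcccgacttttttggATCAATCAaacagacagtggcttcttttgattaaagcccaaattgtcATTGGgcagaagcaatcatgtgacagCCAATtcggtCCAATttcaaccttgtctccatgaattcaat
HOXA3 inner start: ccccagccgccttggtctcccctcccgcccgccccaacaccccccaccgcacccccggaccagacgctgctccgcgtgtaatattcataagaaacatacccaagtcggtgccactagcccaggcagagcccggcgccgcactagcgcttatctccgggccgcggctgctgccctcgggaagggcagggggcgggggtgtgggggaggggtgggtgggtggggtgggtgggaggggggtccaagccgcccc
HOXA4 start: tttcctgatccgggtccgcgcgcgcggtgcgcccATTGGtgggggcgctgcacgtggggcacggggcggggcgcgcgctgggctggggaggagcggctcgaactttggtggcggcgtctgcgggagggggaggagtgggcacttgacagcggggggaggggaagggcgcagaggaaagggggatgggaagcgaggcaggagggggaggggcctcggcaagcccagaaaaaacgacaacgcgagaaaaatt
HOXA6 start: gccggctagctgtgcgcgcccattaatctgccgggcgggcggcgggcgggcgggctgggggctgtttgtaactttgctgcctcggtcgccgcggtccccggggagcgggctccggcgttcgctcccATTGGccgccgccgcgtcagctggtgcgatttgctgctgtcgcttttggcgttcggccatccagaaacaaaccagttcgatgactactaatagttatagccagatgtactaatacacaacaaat
HOXA3 outer start: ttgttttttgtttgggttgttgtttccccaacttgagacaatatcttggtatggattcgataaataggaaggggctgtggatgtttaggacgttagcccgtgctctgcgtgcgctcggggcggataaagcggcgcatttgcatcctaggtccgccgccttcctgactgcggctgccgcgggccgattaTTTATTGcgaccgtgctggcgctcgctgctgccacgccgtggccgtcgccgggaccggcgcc
HOXA7 start: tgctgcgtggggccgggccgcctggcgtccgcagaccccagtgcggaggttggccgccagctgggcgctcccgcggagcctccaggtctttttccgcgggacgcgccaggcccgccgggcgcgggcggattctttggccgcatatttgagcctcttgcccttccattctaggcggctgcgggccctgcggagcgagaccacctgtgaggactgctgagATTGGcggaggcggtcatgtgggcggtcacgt
The HOXA2 sequence had the lowest GC content of the 6, at 47.2%, and the highest motif count, with 4 CCAAT boxes and 1 TGATNNAT match. The HOXA3 inner start had the highest, at 72.0%, and held none of the motifs. GC content was 70.0% before HOXA4, 70.8% before HOXA7, 62.0% before HOXA6 and 58.8% before the HOXA3 outer start, beside a median of 62.0% over 22132 starts. Observed over expected CpG was 1.01, 0.9, 1.13 and 1.22 at these 4 starts, 0.609 before HOXA2 and 0.586 before the HOXA3 inner start, beside a median of 0.711. The HOXA4, HOXA6 and HOXA7 sequences each held 1 CCAAT box, and the HOXA3 outer start held 1 TTTATTG. Over all 22132 starts, 32.7% held CCAAT, 4.56% TGATNNAT and 2.69% TTTATTG. The homeodomain core TAATTA, present at 3.16% of all starts, and the GGAA repeat GGAAGGAAGGAA, present at 0.0678%, had no match before any of the 11 starts. No motif overlapped another in these windows, and a match is a match of letters only.

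The feature shared by the 6 genes in both lines was H3K27me3. All 6 of 6 had an H3K27me3 peak in each of the 4 libraries, a state shared by 10.3% of all protein-coding genes. In both A673 libraries 17.1% of all genes were marked, and in both CHLA10 libraries 15.5%. None of the 6 was marked in A673 only (5.1% of all genes) or in CHLA10 only (3.61%), where a gene counts for a line when both of its libraries and neither of the other line's have a peak. Peaks covered 96.4% and 100.0% of the stretch from HOXA2 to HOXA7 in the A673 libraries and 83.8% and 74.1% in the CHLA10 libraries. Both A673 values lay above both CHLA10 values. The means were 98.2% ± 2.55 and 78.9% ± 6.8 (SD, n = 2 each), a difference of 19.2 percentage points that exceeded the replicate SDs.

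**Figure D1:**
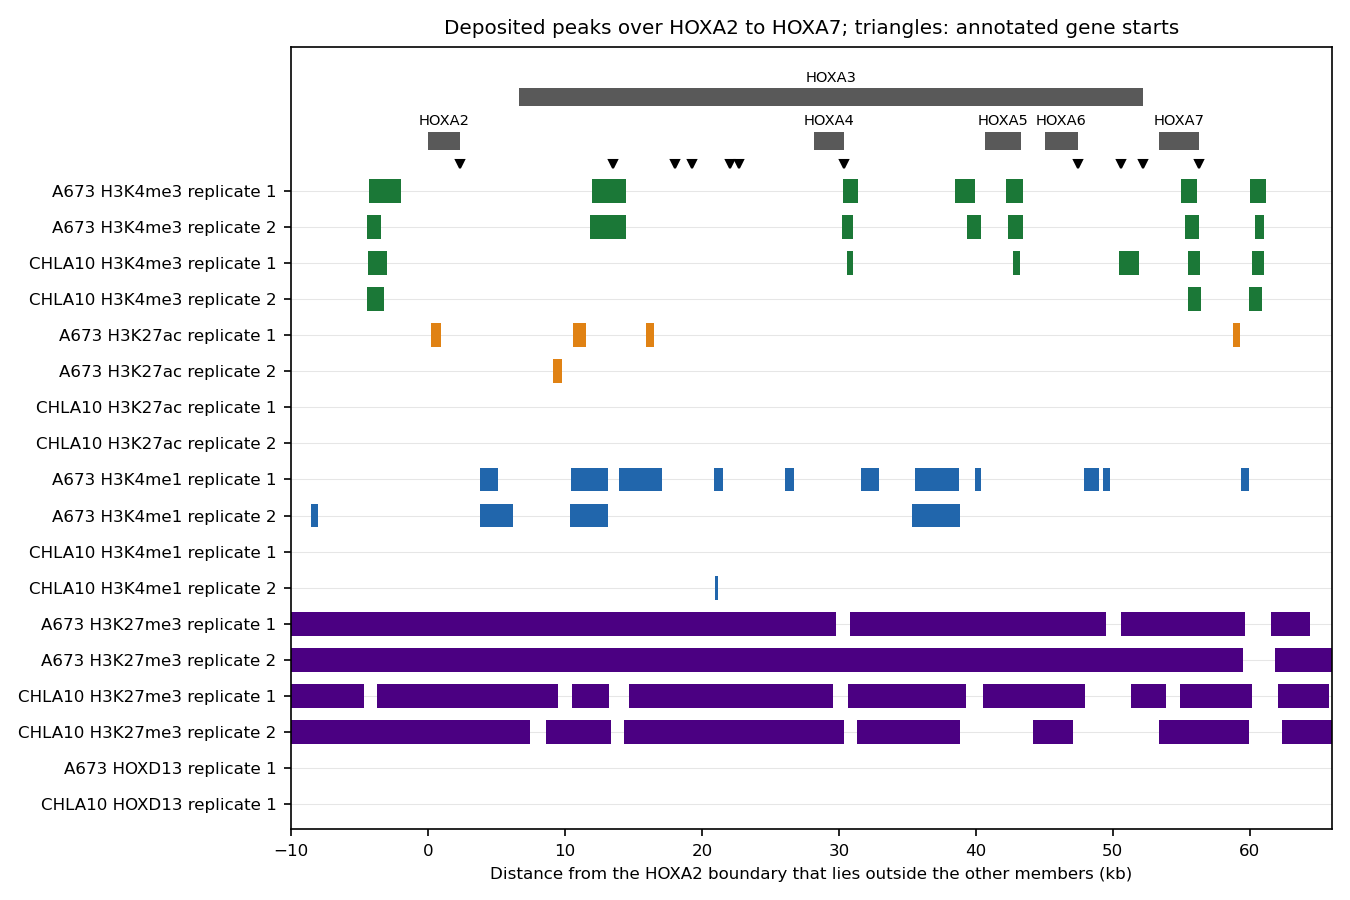
Peaks of the 18 deposited lists over the stretch from HOXA2 to HOXA7 and about 10 kb on each side. The x axis is the distance in kb from the lower boundary of HOXA2, each row is 1 library, coloured blocks are peaks, grey boxes are genes and triangles are annotated starts. H3K27me3 runs through the stretch in both lines, with more gaps in CHLA10, while H3K4me1 and H3K27ac blocks lie almost entirely in the A673 rows and the HOXD13 rows are empty.

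In A673 the H3K27me3 domain was close to unbroken. Replicate 2 listed a single peak over the whole stretch, chr7:27088906-27159867, with a fold enrichment of 8.26 and a −log10 q of 11.4, both as the authors give them, and only 0.197% of that list had a higher −log10 q. In replicate 1 there were 3 peaks, the strongest at chr7:27088922-27130124 with a fold of 8.16 and 0.221% of the list above it. All 4 A673 peaks stood in the upper 5% of their lists. The 13 CHLA10 peaks, 7 in replicate 1 and 6 in replicate 2, had folds of 3.87 to 5.7, and 9 of them stood in the upper 5% of their lists.

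Several gaps between the H3K27me3 peaks held annotated starts, mostly in CHLA10. A673 replicate 1 had 2 gaps of 1003 and 1032 bp, and the first held the HOXA4 start. CHLA10 replicate 1 had 6 gaps of 981 to 3396 bp and CHLA10 replicate 2 had 5 of 901 to 6258 bp. In each CHLA10 library 3 gaps held annotated starts, and both libraries had gaps at the HOXA3 inner start, at the HOXA4 start and at the HOXA3 outer start. The longest gap, in CHLA10 replicate 2, at chr7:27147446-27153703, held 3 starts, namely the HOXA6 start, the HOXA3 outer start and the outermost HOXA3 start, chr7:27152583.

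Single genes varied mainly in CHLA10. HOXA2 was covered over 100.0% of the gene and its flanks in all 4 libraries. HOXA5, a trunk gene whose protein patterns the neck vertebrae and the lung, was covered over 100.0% in both A673 libraries but over 82.6% in CHLA10 replicate 1 and 3.82% in replicate 2, where a gap of 5307 bp spanned it. The 2 CHLA10 libraries thus differed more from each other at HOXA5 than replicate 1 differed from A673. HOXA6 was covered over 100.0% in both A673 libraries and over 89.2% and 67.2% in CHLA10. HOXA7 was covered over 100.0% in both A673 libraries and over 79.5% and 80.1% in CHLA10. At HOXA4 the lines overlapped, with 76.3% and 100.0% in A673 and 74.8% and 77.7% in CHLA10. HOXA3 had 95.7% and 100.0% in A673 and 82.9% and 69.6% in CHLA10. The A673 values of HOXA3, HOXA5, HOXA6 and HOXA7 thus lay above both CHLA10 values. Among all genes with a peak in both libraries, the median coverage was 21.2% in A673 and 32.7% in CHLA10.

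H3K4me3 was found at 4 of the 6 genes in both A673 libraries, namely HOXA3, HOXA4, HOXA5 and HOXA7, and at HOXA7 alone in both CHLA10 libraries. Over all genes the shares were 69.6% and 69.9%. HOXA2 and HOXA6 had no H3K4me3 peak in any library. No member was marked in A673 only (1.68% of all genes) or in CHLA10 only (2.4%), because CHLA10 replicate 1 also listed peaks at HOXA3, HOXA4 and HOXA5. Without that library, HOXA3, HOXA4 and HOXA5 counted as marked in A673 only. Peaks covered 13.2% and 11.6% of the stretch in A673 and 5.74% and 1.46% in CHLA10. Both A673 values were the higher, and the means of 12.4% ± 1.17 and 3.6% ± 3.02 (SD, n = 2 each) differed by 8.8 percentage points.

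The peaks formed 6 separate sites over the stretch, of which 5 were present in both A673 libraries and 1 in both CHLA10 libraries. The site shared by all 4 libraries was at the start of HOXA7, a gene active in the trunk. It covered 24.4% and 20.4% of HOXA7 and its flanks in A673 and 17.0% and 18.3% in CHLA10. Its fold enrichment was 7.14 and 6.29 in the A673 lists and 10.5 and 9.34 in the CHLA10 lists. Coverage of HOXA7 was thus somewhat higher in both A673 libraries, while the folds, each relative to its own list's background, were higher in both CHLA10 libraries.

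The clearest difference in H3K4me3 between the lines was at the HOXA3 inner start, chr7:27113842. A673 replicate 1 listed a peak at chr7:27112332-27114816 with a fold of 16.9 and a −log10 q of 51.4, and replicate 2 one at chr7:27112145-27114822 with 11.4 and 25.6. They covered 98.7% and 99.0% of the 1 kb on each side of the start. Neither CHLA10 library had an H3K4me3 peak there, although both had a gap in H3K27me3 at the same start. Of the 11 annotated starts, this was the 1 marked in A673 only, beside 2.07% of all starts, and 0 of 11 were marked in CHLA10 only, beside 2.17%.

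At HOXA4 the site at the start covered 24.8% and 17.4% of the gene and its flanks in A673, 9.47% in CHLA10 replicate 1 and 0.0% in CHLA10 replicate 2. HOXA5 had a site over its upper boundary, with folds of 18.3 and 8.71 in A673 and 6.44 in CHLA10 replicate 1 and no peak in CHLA10 replicate 2. Together with a weaker A673 site at chr7:27138828-27140692, peaks covered 32.0% and 37.1% of HOXA5 in A673 and 11.6% and 0.0% in CHLA10. At both genes the A673 libraries lay above the CHLA10 libraries, and CHLA10 replicate 2 listed nothing. A sixth site, chr7:27150798-27152265 at the HOXA3 outer start, ran against this order, with a fold of 9.39 in CHLA10 replicate 1 and no peak in the other 3 libraries.

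All 15 H3K4me3 peaks over the stretch lay below the median −log10 q of their lists. Between 61.6% and 87.8% of the list had a higher −log10 q in A673, and between 58.6% and 77.1% in CHLA10. With only the upper 50% of each list by q, no H3K4me3 peak was left in the stretch in either line and the difference between lines was 0. H3K27me3 peaks of the stretch stood higher in their lists, all 4 in A673 and 12 of 13 in CHLA10 above the median, with 1 CHLA10 replicate 1 peak, chr7:27151698-27154229, below it (53.4% of its list was higher).

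**Figure D2:**
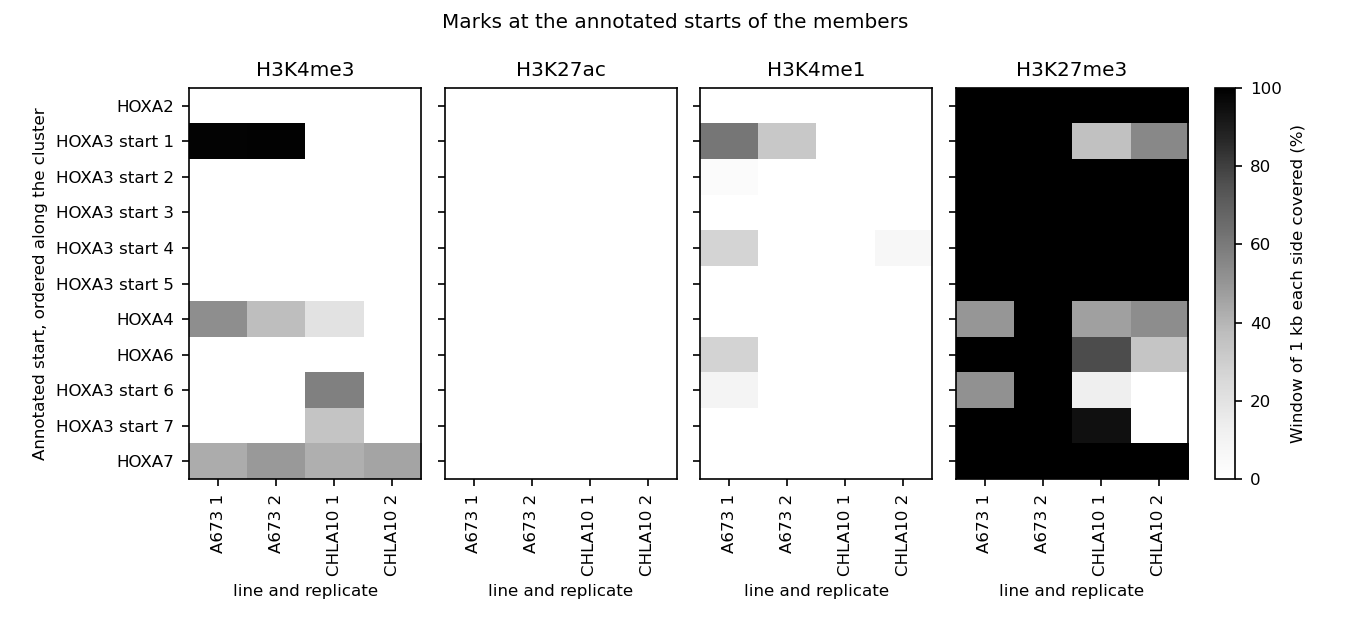
Percent of the window of 1 kb on each side of each of the 11 annotated starts that peaks cover, per library and mark. Rows follow the order along the cluster, the HOXA3 starts are numbered along it, columns are the 2 libraries of each line, and darker means more covered. The first HOXA3 start, the inner one, is dark for H3K4me3 in the A673 libraries (98.7% and 99.0%) and blank in CHLA10, whereas HOXA7 is grey in all 4.

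H3K4me3 and H3K27me3 occurred together over these genes. In A673, 4 of 6 carried both marks in both libraries of each, beside 9.23% of all genes, and in CHLA10 only HOXA7 did, beside 6.43%. Since every member had H3K27me3 in every library, these counts are those of H3K4me3 alone. For H3K4me3 alone the shares of all genes were 69.6% in A673 and 69.9% in CHLA10. Of the base pairs under H3K4me3 peaks in the stretch, 92.0% to 100% lay inside H3K27me3 peaks in the 4 pairings of A673 libraries. H3K27me3 covered 96.4% and 100.0% of the stretch in A673, so these shares follow largely from that coverage. In CHLA10 it covered 83.8% (replicate 1) and 74.1% (replicate 2). In CHLA10 the share of H3K4me3 base pairs was 71.1% and 25.6% for H3K4me3 replicate 1 and 100% for replicate 2, whose single peak was that at HOXA7. In CHLA10 replicate 1, H3K4me3 thus lay partly in the gaps of H3K27me3. Overlap of peaks in separate libraries does not show that the marks sat on the same chromosome copy.

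H3K4me1 was almost confined to A673 in the lists for these genes. It covered 26.8% and 15.4% of the stretch in A673 and 0.0% and 0.35% in CHLA10. The A673 libraries lay far above both CHLA10 libraries, with means of 21.1% ± 8.04 and 0.175% ± 0.247 (SD, n = 2 each) and a difference of 20.9 percentage points. HOXA3 was the 1 of 6 members marked in both A673 libraries, beside 43.3% of all genes, and 0 of 6 were marked in both CHLA10 libraries, beside 17.9%. The CHLA10 lists held far fewer H3K4me1 peaks. With all H3K4me1 lists cut to an equal number of their strongest peaks, the difference was 16.2 percentage points. Peak lengths were not equalised by this cut. In full, the H3K4me1 lists covered 74.5 and 51.6 Mb in A673 and 9.63 and 11.3 Mb in CHLA10.

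Of 10 H3K4me1 sites over the stretch, 3 were in both A673 libraries. The first lay between HOXA2 and HOXA3 at chr7:27104164-27106528, with folds of 11.3 and 19.0. The second, at chr7:27110693-27113485 with 16.1 and 12.7, partly overlapped the H3K4me3 of the HOXA3 inner start. The third, with 13.3 and 11.9, lay inside HOXA3 between HOXA4 and HOXA5 at chr7:27135653-27139171. All 3 were absent from both CHLA10 lists. Another 6 sites were in A673 replicate 1 only, among them those counted for HOXA5 (fold 2.61) and HOXA6 (fold 6.8), and A673 replicate 1 had the longest H3K4me1 list.

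The only CHLA10 H3K4me1 peak was 197 bp long, at chr7:27121314-27121510 inside HOXA3 in replicate 2, with a fold of 3.74, and 95.4% of its list had a higher −log10 q. It overlapped a peak of A673 replicate 1. Because of it, 0 of 6 members counted as marked with H3K4me1 in A673 only, beside 16.3% of all genes, and without CHLA10 replicate 2 HOXA3 did. In CHLA10 only, 0 of 6 were marked, beside 0.411%.

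H3K27ac was sparse. In A673 replicate 1 it covered 3.94% of the stretch and in replicate 2 1.09%, and no peak was listed in either CHLA10 library. The A673 mean of 2.52% ± 2.02 (SD, n = 2) was little above its SD. HOXA3 was marked in both A673 libraries and neither CHLA10 library, the 1 of 6 members in A673 only, beside 8.66% of all genes. The A673 peaks at HOXA3 were not at the same place. Replicate 1 listed chr7:27110907-27111875 (fold 7.93) and chr7:27116289-27116819 (fold 7.4), and replicate 2 chr7:27109496-27110107 (fold 7.12), so that none of the 4 H3K27ac sites in the stretch was found in both libraries. The fourth site, chr7:27100586-27101306 with a fold of 8.99, lay within HOXA2 in replicate 1.

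No H3K27ac peak lay within 1 kb of any of the 11 starts in any library, a state shared by 59.4% of all starts. HOXA4, HOXA5, HOXA6 and HOXA7 had no H3K27ac peak in any library, like 25.2% of all genes. Over all genes, 38.7% were marked in both A673 libraries and 35.1% in both CHLA10 libraries. None of the members was marked in CHLA10 only, beside 4.81%. The A673 H3K27ac peaks lay wholly inside H3K27me3 peaks (100% of their base pairs), as did 98.3% to 100% of the A673 H3K4me1 base pairs. H3K27me3 covered 96.4% and 100.0% of the stretch in A673, so almost any peak there would lie inside it.

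**Figure D3:**
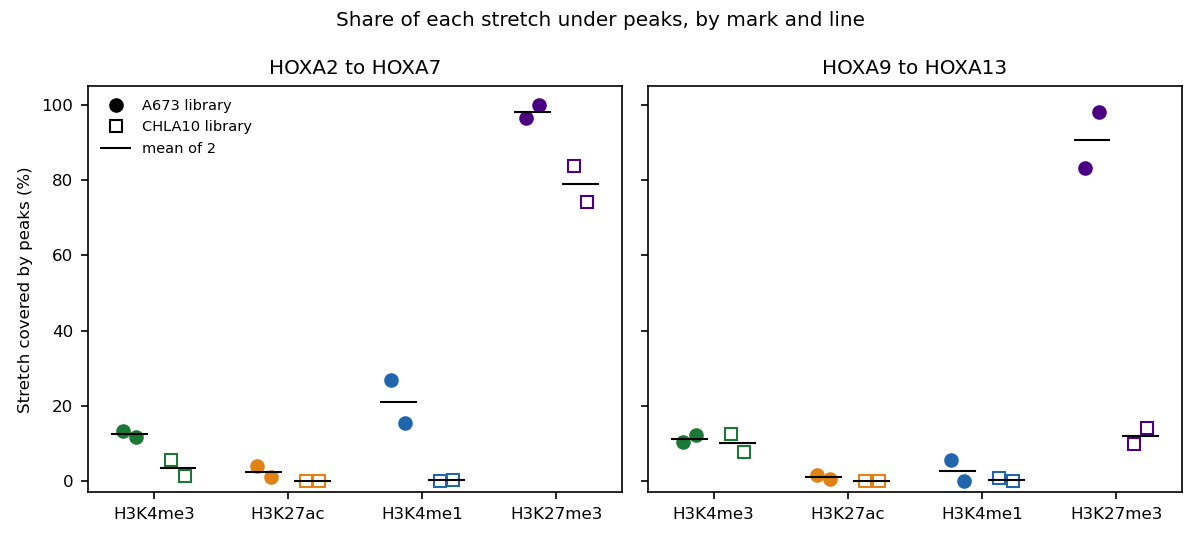
Percent of the stretch from HOXA2 to HOXA7 (left) and from HOXA9 to HOXA13 (right) covered by peaks of each mark. Points are single libraries (filled circles A673, open squares CHLA10) and bars are means of 2. In the left panel the A673 points lie above the CHLA10 points for every mark, and in the right panel the lines separate widely for H3K27me3 (90.6% against 11.9% on average) while their H3K4me3 points overlap.

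The posterior neighbours HOXA9 to HOXA13 showed where the domain of the anterior genes ended in CHLA10. Over the posterior stretch of 37654 bp, H3K27me3 covered 83.1% and 98.1% in A673 and 9.76% and 14.1% in CHLA10, a difference of means of 78.7 percentage points against 19.2 over HOXA2 to HOXA7. HOXA9 was covered in all 4 libraries (55.7%, 85.9%, 72.7% and 74.9%), whereas HOXA10, HOXA11 and HOXA13 were covered over 86.8% or more in both A673 libraries and 0.0% in both CHLA10 libraries. The difference of the H3K27me3 differences was not tested. For H3K4me1 the order was the other way round, with 20.9 percentage points over HOXA2 to HOXA7 and 2.36 over HOXA9 to HOXA13, where only A673 replicate 1 and CHLA10 replicate 1 listed peaks.

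Both lines broke the H3K27me3 domain at the same place beyond HOXA7. The peak over HOXA7 ended 3.34 and 3.19 kb beyond the gene in A673 and 3.82 and 3.63 kb beyond it in CHLA10, so the 4 ends lay within 626 bp of each other. The next H3K27me3 peak began after a gap of 1864 to 2418 bp, and in each line both H3K4me3 libraries had a peak within that gap.

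The paralogues of the members in the other clusters, HOXB2 to HOXB7, HOXC4 to HOXC6, HOXD3 and HOXD4, had no H3K27me3 peak in any library (0 of 11), a state shared by 72.2% of all genes. H3K4me3 was present in all 4 libraries at 8 of the 11 and at 1 of the 6 members, beside 66.7% of all genes. HOXB4, the paralogue of HOXA4, was covered by H3K4me3 over 63.3% and 60.5% in A673 and 44.1% and 44.1% in CHLA10, and by no H3K27me3. HOXB2, the paralogue of HOXA2, was covered over 83.1%, 83.0%, 80.8% and 84.0%, where HOXA2 had no H3K4me3. HOXB5, HOXD3 and HOXD4 had neither mark. H3K4me1 in A673 only was found at 5 of the 11 paralogues, namely HOXB2, HOXB6, HOXB7, HOXC6 and HOXD3. It was found at 0 of the 6 members and at 16.3% of all genes. At HOXA3 this rested on the single 197 bp peak of CHLA10 replicate 2, without which HOXA3 counted as marked in A673 only. These counts describe the lists and carry no test.

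**Figure D4:**
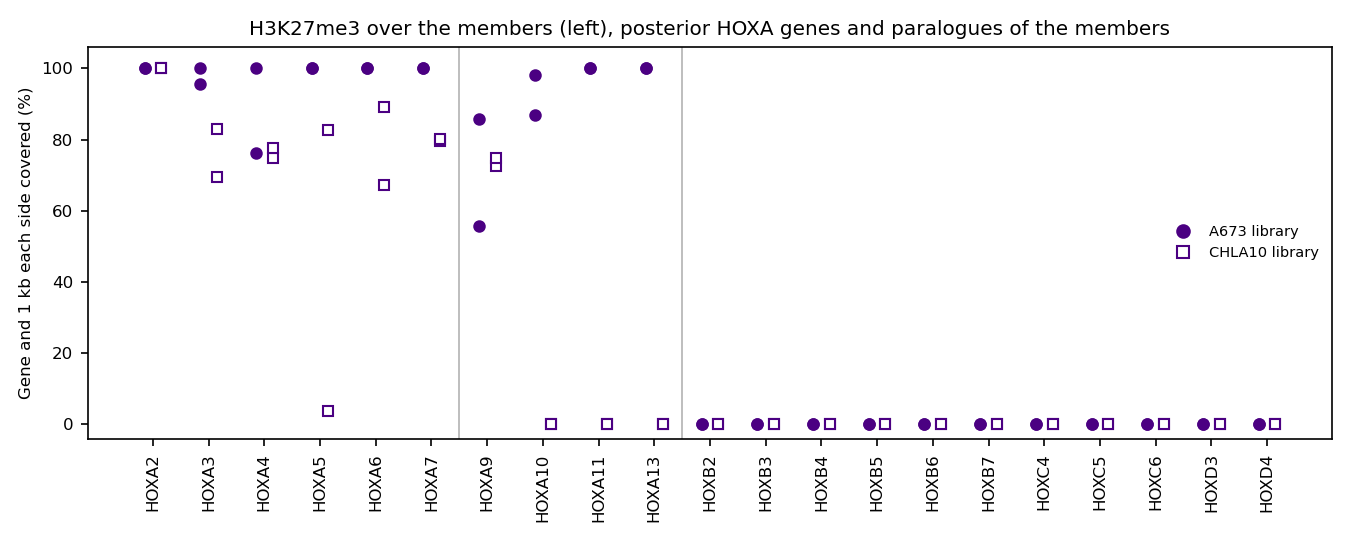
Percent of each gene and 1 kb on each side covered by H3K27me3 peaks, per library (filled circles A673, open squares CHLA10). The members are on the left, the posterior HOXA genes in the middle and the paralogues on the right. The members lie at 67.2% or more in every library except HOXA5 in CHLA10 replicate 2 (3.82%), and all 11 paralogues lie at 0.

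HOXD13 peaks were absent from the surroundings of these genes. In neither line was a peak listed within 100 kb of any member (0 of 6), beside 38.8% of all genes in A673 and 11.6% in CHLA10. None was listed within 500 kb of the stretch in either line, and 5 (A673) and 3 (CHLA10) were within 1000 kb, of 407 and 127 on chromosome 7. The nearest A673 peaks were at chr7:26200352-26200444 over HNRNPA2B1, which encodes an RNA-binding protein, 899.9 kb below HOXA2, and at chr7:27933390-27933634 over JAZF1, 776.7 kb above HOXA7. The nearest CHLA10 peaks were at chr7:25295414-25295698, 1804.7 kb below, and at chr7:28037231-28037538, also over JAZF1, 880.6 kb above. The 6 genes lie within 100 kb of each other and share these surroundings, so the 6 counts are not independent. The other HOXA genes were alike, with 0 of 5 in either line, and of the HOXB genes 1 of 10 had such a peak in A673 and 0 in CHLA10. Of the HOXD genes 9 of 9 did in A673 and 1 of 9 in CHLA10, and of the HOXC genes 9 of 9 did in both lines. Of the 11 paralogues, which belong to these clusters, 5 did in A673 and 3 in CHLA10. With 1 HOXD13 library per line there is no replicate check.

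The genes around the cluster differed from it in their H3K4me3. All 7 of SKAP2, SNX10, CBX3, HIBADH, TAX1BP1, JAZF1 and EVX1 carried that mark in all 4 libraries, beside 66.7% of all genes. H3K27me3 was present in all 4 at SKAP2, which encodes an adaptor protein of immune cells, SNX10, a sorting nexin, and EVX1, a homeobox gene beside the cluster. JAZF1 had it in A673 only. H3K27ac was in A673 only at SKAP2 and SNX10, and H3K4me1 at SNX10.

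Genes that regulate HOX transcription were examined as lists. All 13 Polycomb genes, such as EZH2, the H3K27 methyltransferase, carried H3K4me3 in all 4 libraries, beside 66.7% of all genes. So did all 9 trithorax and H3K27 demethylase genes, such as KMT2A and KDM6A. Among the Polycomb genes described here, RING1 had H3K27ac in CHLA10 only, and RING1, CBX2 and CBX8 had H3K4me1 in A673 only. None of the 9 trithorax and demethylase genes had any of the 4 marks in 1 line only. All 9 genes of the HOX cofactor families MEIS, PBX and PKNOX carried H3K4me3 in all 4 libraries, beside the same 66.7%. Of these, MEIS2 and PBX3 had H3K27me3 in A673 only and MEIS3 in CHLA10 only, and MEIS3 had H3K27ac in A673 only.

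Retinoic acid induces anterior HOX genes in the embryo, and CDX factors act on the central ones. Of 11 genes of these pathways, 4 carried H3K27me3 in all 4 libraries, beside 10.3% of all genes. They were RARB, a retinoic acid receptor, ALDH1A2, which makes retinoic acid, CYP26A1, which degrades it, and CDX4. CYP26B1, another degrading enzyme, had H3K27me3 in A673 only, and ALDH1A2 had H3K27ac in CHLA10 only. H3K4me3 was found at 7 of the 11 in all 4 libraries, RARB and CYP26A1 among them, which is near the 66.7% of all genes.

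Outside the HOX clusters, the genes with the most similar profile were OTP, KCNA3, TCF21, FOXB2 and IHH. Likeness was the mean absolute difference in covered percent from the mean of the 6 members over the 16 histone libraries, which was 3.17, 3.21, 3.63, 3.68 and 3.84 percentage points for these genes and 24.4 for the median gene. The members themselves lay between 3.14 (HOXA3) and 7.66 (HOXA5) from their own mean. OTP, TCF21 and FOXB2 encode developmental transcription factors, KCNA3 a potassium channel and IHH the ligand Indian hedgehog. H3K27me3 covered 95.0% to 100.0% of each of the 5 in A673 and 75.0% to 94.6% in CHLA10 on average, and OTP, at 13.9% and 12.6%, had H3K4me3 in like amounts in both lines.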

How the data were processed

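The 18 lists are peaks called per library by the authors on hg38; the submitters' processing notes name Bowtie2, MACS2, SEACR 1.2 and bedtools. Per the peak names in the files, H3K27me3 peaks are broad calls with no control, and all others are narrow calls against IgG. Each deposited list gives a fold enrichment (a ratio over the caller's background), −log10 p and −log10 q values and a score. The numbering of the deposited peaks skips values: the lists are subsets, by a criterion not given in the sources used here. From these lists, overlaps (minimum 1 bp), merged coverage and distances were computed with Python 3.11.15, pandas 2.3.3 and NumPy 2.4.6, and the code was tested on simulated data. Gene boundaries and starts came from RefSeq tables of GRCh38.p14, which give no exons, and exons and introns were not told apart. Named genes were the 6 members, the other genes of fixed lists as counts, named where marked in 1 line only or where a mark differed from the members, and the 5 genes of most similar profile. The members, lists and rules were chosen with earlier results of these data known. Results for some genes of the Polycomb and marker lists are not reported here. Alternatives were windows, overlap, list strength, list length and leaving out each library.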

Additional observations from a re-analysis of the deposited data

How the results depend on the processing

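No paired analysis was possible because the results are counts and differences of means with no test, and replicate numbers are not stated to pair the lines. Of 124 alternatives over 14 results, 114 gave the same call, 10 moved it and 0 reversed a direction. Some of the 114 could not differ. With no HOXD13 peak within 100 kb, a shorter window or a shortened list again gives 0. The number of members with H3K4me3 in A673 only was 0, and 1 (HOXA4) with peaks over the gene alone; leaving out single libraries gave 0 to 3. The number with H3K27ac in A673 only was 1, and 0 with 1 kb on each side of annotated starts, which covered 5 members; leaving out single libraries gave 1 to 2. The number with H3K4me1 in A673 only was 0, and 3 (HOXA2, HOXA4 and HOXA5) with 5 kb on each side, 1 (HOXA3) with an overlap of at least 200 bp and 1 (HOXA3) with the upper 50% by q; leaving out single libraries gave 0 to 2, the 2 being HOXA5 and HOXA6 without A673 replicate 2. The H3K4me3 difference in coverage, 8.8 percentage points, was 0 with the upper 50% by q, since no stretch peak was left, and 6.66 to 10.9 without single libraries. Differences without single libraries were 14.4 to 24.1 for H3K27me3, 15.2 to 26.6 for H3K4me1 and 1.09 to 3.94 for H3K27ac, where replicate 1 of A673 supplied most of the value. Counting HOXA3 only where it lies over 1 kb from every other member, an alternative chosen after seeing the data, changed none of the 8 counts of members. Depth is unknown, which limits what a missing peak shows.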
